A study of Mus musculus with 4 samples.

Results

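The 44 mouse genes described here are imprinted genes other than H19 and Igf2. Imprinted genes are expressed mainly from the copy inherited from 1 parent. The genes were taken from a list and placed at their positions in the RefSeq gene table of GRCm38.p6, whose positions are those of mm10, and all 44 of 44 were found among its 49939 genes on chromosomes 1 to 19, X and Y. They fall into 20 imprinted domains. The DNA-binding zinc finger protein CTCF was mapped by chromatin immunoprecipitation and sequencing (ChIP-seq) with a rabbit antibody in the medial ganglionic eminence (MGE), the ventral forebrain region that produces many interneurons, and in the telencephalon, the part of the forebrain that forms the cerebral hemispheres and includes the MGE, of mouse embryos labelled as embryonic day 13.5. Each tissue gave 1 CTCF library and 1 input library, and the CTCF peak lists are the data used here. The labels give no strain, genotype, sex or treatment for either tissue, and since they describe dissection of the MGE for every sample, it is unclear from them if telencephalon tissue was taken with or without it. They state a different library kit for each tissue, so that tissue and kit cannot be told apart. Every peak in a gene or up to 50 kb outside it was taken, and peaks of the MGE and telencephalon lists that have at least 1 bp in common are called shared. These windows covered 5.7 Mb and held 72 of 25625 MGE peaks and 98 of 31886 telencephalon peaks.

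Many imprinted genes lie in clusters, each governed by a stretch of DNA that is methylated on the copy from 1 parent. In many clusters the unmethylated copy transcribes a long noncoding RNA, such as Airn, Kcnq1ot1 or Meg3, and neighbouring genes are silenced on that copy. CTCF binds some unmethylated control regions and is blocked there by DNA methylation, and it marks many loop anchors together with cohesin. Many imprinted genes, among them Ube3a, Grb10, Peg3 and Kcnk9, are known for functions in the brain. The peak lists do not separate the parental copies, so nothing below says on which copy CTCF was bound.

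Sequences were examined where a peak met a promoter window of the RefSeq table, which runs from 250 bases before a gene's start to 50 bases after it. The table held 49 such windows for 34 of the 44 genes. MGE peaks overlapped 1 of the 49 windows, that of H13, beside 3.83% of all 32851 promoter windows. Telencephalon peaks overlapped 3, those of Commd1, Gnas and H13, beside 6.46% of all windows. A core of the CTCF motif was sought on both strands, namely CCA, 2 bases of any kind, AG, 2 bases of any kind and GGC. It was present in 2.43% of all promoter windows, in 17.9% of the 1100 windows under a shared peak, in 5.1% of the 157 under an MGE peak alone, in 7.06% of the 1020 under a telencephalon peak alone and in 1.7% of those with no peak. Among the 49 windows of imprinted genes 1 held it, that of H13 (chr2:152669211-152669510, plus strand), which encodes signal peptide peptidase. Its match lay inside the peak of both lists, 31.0 bp from the midpoint of the MGE peak and 23.0 bp from that of the telencephalon peak. The windows of a pair of neighbours also held it under shared peaks, and these were the imprinted gene Peg12 (chr7:62464461-62464760, minus strand) beside Mkrn3, and the lncRNA gene Gm33663 (chr7:143466449-143466748, minus strand) beside Cdkn1c. The Gm33663 match also had the stricter form, in which GG stands between AG and GGC, found in 0.371% of all windows. These 3 windows are printed because motif and shared peak coincide there, from the RefSeq table on GRCm38.p6, 5′ to 3′ along the gene, with the motif in capitals. In Peg12 the motif is on the opposite strand. Another Gm33663 window, chr7:143466448-143466747, held the same match under the same shared peak and is not printed.
H13: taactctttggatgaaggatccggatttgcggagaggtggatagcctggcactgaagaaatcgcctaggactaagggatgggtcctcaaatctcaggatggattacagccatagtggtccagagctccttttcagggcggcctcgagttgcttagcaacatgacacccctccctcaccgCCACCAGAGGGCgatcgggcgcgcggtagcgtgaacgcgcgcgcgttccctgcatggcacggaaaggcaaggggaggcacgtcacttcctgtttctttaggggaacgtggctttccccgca
Gm33663: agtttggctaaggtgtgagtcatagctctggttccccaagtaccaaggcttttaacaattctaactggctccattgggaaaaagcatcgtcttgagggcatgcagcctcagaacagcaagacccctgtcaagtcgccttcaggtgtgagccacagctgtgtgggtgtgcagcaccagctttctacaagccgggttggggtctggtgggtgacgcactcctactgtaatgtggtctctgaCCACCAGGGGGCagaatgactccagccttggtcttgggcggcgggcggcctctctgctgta
Peg12: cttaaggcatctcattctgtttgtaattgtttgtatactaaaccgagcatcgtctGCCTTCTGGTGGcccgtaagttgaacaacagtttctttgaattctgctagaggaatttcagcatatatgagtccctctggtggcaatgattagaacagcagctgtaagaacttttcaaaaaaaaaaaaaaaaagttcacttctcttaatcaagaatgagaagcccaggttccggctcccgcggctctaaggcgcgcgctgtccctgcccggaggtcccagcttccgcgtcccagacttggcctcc

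The promoter windows of Commd1 (chr11:22982235-22982534, minus strand), a copper metabolism gene, and Gnas (chr2:174284070-174284369, plus strand), which encodes a G protein alpha subunit, met telencephalon peaks with no MGE partner and held no match to either form. The peak covered all 300 bases of the Commd1 window and 150 bases of the Gnas window. The window of Trpm5, a neighbour of Kcnq1, lay in part under a shared peak and held no match either. That no match was found says that these letters are absent from the window, and the peaks at Commd1 and Gnas are shown as the contrast to H13.
Commd1: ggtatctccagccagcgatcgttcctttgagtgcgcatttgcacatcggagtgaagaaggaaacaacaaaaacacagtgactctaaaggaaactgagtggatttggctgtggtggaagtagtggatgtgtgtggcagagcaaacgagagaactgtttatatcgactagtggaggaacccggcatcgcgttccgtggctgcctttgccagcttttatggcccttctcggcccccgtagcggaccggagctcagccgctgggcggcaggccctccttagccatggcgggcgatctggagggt
Gnas: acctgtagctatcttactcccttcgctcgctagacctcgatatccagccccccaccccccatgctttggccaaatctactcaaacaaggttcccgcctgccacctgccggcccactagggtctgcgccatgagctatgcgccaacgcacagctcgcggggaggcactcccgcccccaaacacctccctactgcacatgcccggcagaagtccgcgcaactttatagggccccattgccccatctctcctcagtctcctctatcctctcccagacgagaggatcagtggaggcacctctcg

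CTCF peaks lay in or within 50 kb of nearly all of the 44 listed genes in both tissues. The interval of that share held the protein-coding share in telencephalon and began just above it in MGE. The share with a peak at a gene end had an interval that held the protein-coding share in both lists. With the 50 kb on either side included, 41 of 44 genes had an MGE peak (93.2%, interval 81.3 to 98.6%) and 41 of 44 had a telencephalon peak (93.2%, same interval). The background was 71.1% of all genes and 80.3% of 21883 protein-coding genes in the MGE list, and 72.7% and 82.8% in the telencephalon list. A shared peak was found in these windows for 36 of 44 genes (81.8%, 67.3 to 91.8%), beside 55.1% of all genes and 68.2% of protein-coding genes. Intervals here and below are exact 95% intervals (Clopper-Pearson). They cover counting error only and take genes as independent, although neighbours can have a peak in common. Imprinted genes had a median length of 39.0 kb, against 6.0 kb for all genes and 17.2 kb for protein-coding genes, and a longer gene has a longer window. The genes without an MGE peak in the window were Kcnq1ot1, Peg10 and Dcn, and those without a telencephalon peak were Kcnq1ot1, Snurf and Ube3a, so that Kcnq1ot1 alone had none in either list (2.27%, beside 17.6% of all genes and 2402 of 21883 protein-coding genes). The lists hold no read counts and depth is unknown, so weak binding below the calling limit cannot be seen.

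Inside the gene itself, 20 of 44 genes had an MGE peak (45.5%, 30.4 to 61.2%), beside 31.4% of protein-coding genes and 18.5% of all genes, and 20 of 44 had a telencephalon peak (45.5%), beside 39.1% and 23.2%. A shared peak lay inside 16 of 44 genes (36.4%, 22.4 to 52.2%), beside 24.3% of protein-coding genes and 13.9% of all genes. Within 1 kb of an annotated end, 3 of 44 genes had an MGE peak (6.82%, 1.43 to 18.7%), beside 12.1% of protein-coding genes and 4165 of all 49939 genes. The telencephalon count was 8 of 44 (18.2%, 8.19 to 32.7%), beside 19.3% and 6494 of 49939. H13, Kcnk9 and Peg13 had such a peak in MGE and in telencephalon, and Gnas, Sgce, Peg10, Magel2 and Meg3 had one in the telencephalon list and none in the MGE list. The Gnas peak (150 bp) and the peak of Sgce and Peg10 (189 bp) were narrower than 244 bp, the narrowest width in the MGE list. With telencephalon peaks of at least that width, 5 genes had a gene-end peak in telencephalon, against 8 with all peaks, and it was also 5 with the telencephalon list limited to its widest peaks, as many as the MGE list holds, or with ends of 500 bp. Sgce, which encodes epsilon-sarcoglycan, and Peg10, a gene derived from a retrotransposon, lie head to head and had the same 189 bp telencephalon peak, and the nearest MGE peak lay 20879 bp from Sgce. No share was tested against its background.

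**Figure D1:**
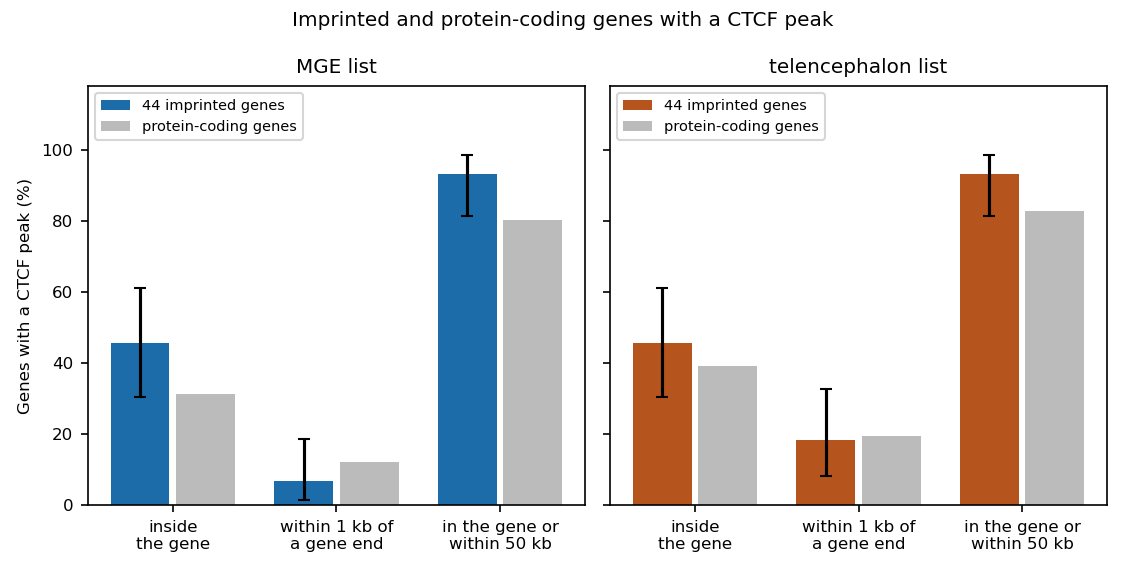
Percentage of genes with a CTCF peak in the MGE list (left) and the telencephalon list (right), for the 44 imprinted genes (coloured bars, exact 95% intervals) and for protein-coding genes (grey bars). Each interval holds the protein-coding share except that of the 50 kb windows in MGE, which starts at 81.3%, against 80.3% of protein-coding genes.

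Of the 72 MGE peaks in the windows, 51 were shared (70.8%, 58.9 to 81.0%), and of the 98 telencephalon peaks, 51 were shared (52.0%, 41.7 to 62.2%). The background over the whole lists was 58.4% and 47.0%. With 1 library per tissue no test between tissues is possible, and the windows were not tested against the rest of the lists. Each of the 51 shared MGE peaks had a single partner. The midpoints of partners lay a median of 38.0 bp apart, at most 164 bp, and in 30 pairs the narrower peak lay wholly inside the other. The MGE peak was the wider of the pair in 26 cases and the telencephalon peak in 25. Peak density in the windows was 12.6 per Mb in MGE and 17.2 per Mb in telencephalon, beside 9.41 and 11.7 per Mb over the genome. The genome values include stretches far from any gene, and the density in windows around other genes was not computed. Inside the genes, 22 of 34 MGE peaks were shared (64.7%), as were 22 of 43 telencephalon peaks (51.2%). In the 50 kb flanks, 29 of 38 MGE peaks were shared (76.3%), as were 29 of 55 telencephalon peaks (52.7%).

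Shared peaks were wider than the others in both lists. Their median width was 374 bp in MGE and 358 bp in telencephalon, against 252 bp and 229 bp for peaks with no partner. Among peaks wider than the median of their own list, 37 of 44 MGE peaks were shared (84.1%, beside 81.2% over the whole list), as were 39 of 51 telencephalon peaks (76.5%, beside 71.3%). At or under that median, 14 of 28 MGE peaks were shared (beside 35.8%), as were 12 of 47 telencephalon peaks (25.5%, beside 22.9%). Wide peaks in the windows were thus shared more often than narrow ones, as over the whole lists. Of the 21 unshared MGE peaks, 9 were 244 bp wide, the minimum of that list, and 31 of the 47 unshared telencephalon peaks were narrower than 244 bp, a width at which the MGE list holds no peaks. The lists therefore cannot be compared among the narrowest telencephalon peaks. Among peaks of at least 244 bp in both lists, 44 of 60 telencephalon peaks in the windows were shared (73.3%, 60.3 to 83.9%), beside 65.5% over the whole list. In MGE, 44 of 72 were then shared (61.1%, 48.9 to 72.4%), beside 50.5% over the whole list. The telencephalon share was thus the higher at this limit, whereas with all peaks the MGE share was. Wide peaks without a partner were few. In MGE, 5 unshared peaks were wider than 350 bp, in or near Ube3a (498 and 467 bp), Grb10 (373 bp), H13 (369 bp) and Gnas (364 bp). In telencephalon there were 7, inside Kcnq1 (511 and 397 bp), Trappc9 (494 bp) and Commd1 (396 and 380 bp) and near Mkrn3 (403 bp) and Plagl1 (399 bp).

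**Figure D2:**
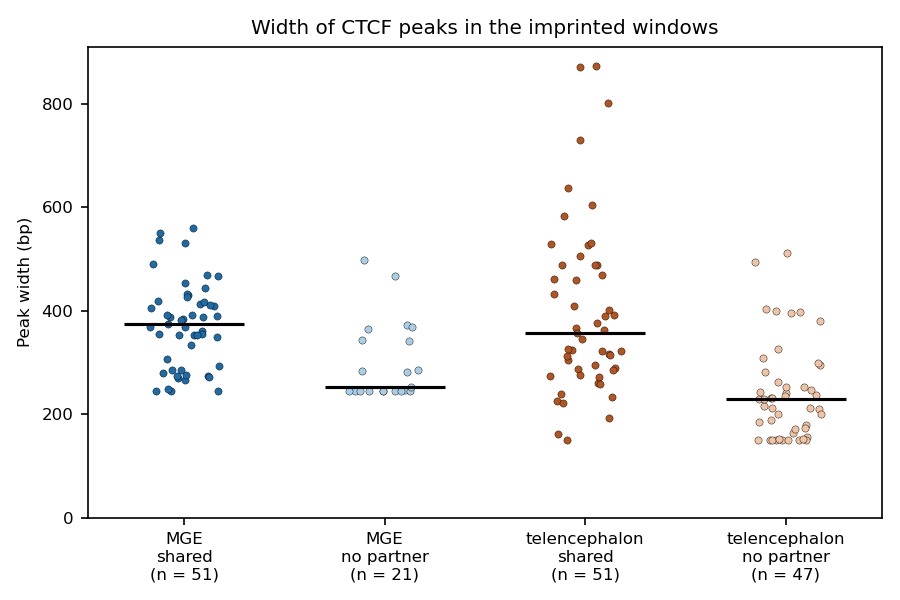
Width in bp of each CTCF peak in the imprinted windows (points), by list and by whether it was shared between the lists; black lines are medians. Shared peaks centre on 374 bp in MGE and 358 bp in telencephalon, and peaks with no partner on 252 bp and 229 bp, with 9 MGE and 7 telencephalon peaks at the narrowest width of their list.

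By domain, 17 of 20 had at least 1 shared peak, and Plagl1, Peg10 and Dcn had none. The MGE list had peaks in 19 domains and the telencephalon list in all 20. All MGE peaks were shared in 7 domains, those of Igf2r, Kcnq1, Rasgrf1, Zrsr1, Inpp5f, Zdbf2 and Slc38a4. At Zdbf2 alone the lists matched fully, with 2 peaks in each. The MGE list had more peaks than the telencephalon list at 2 domains, Nnat and H13, and fewer at 12. The highest density was in the H13 domain, at 43.1 peaks per Mb in MGE and 35.9 per Mb in telencephalon.

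**Figure D3:**
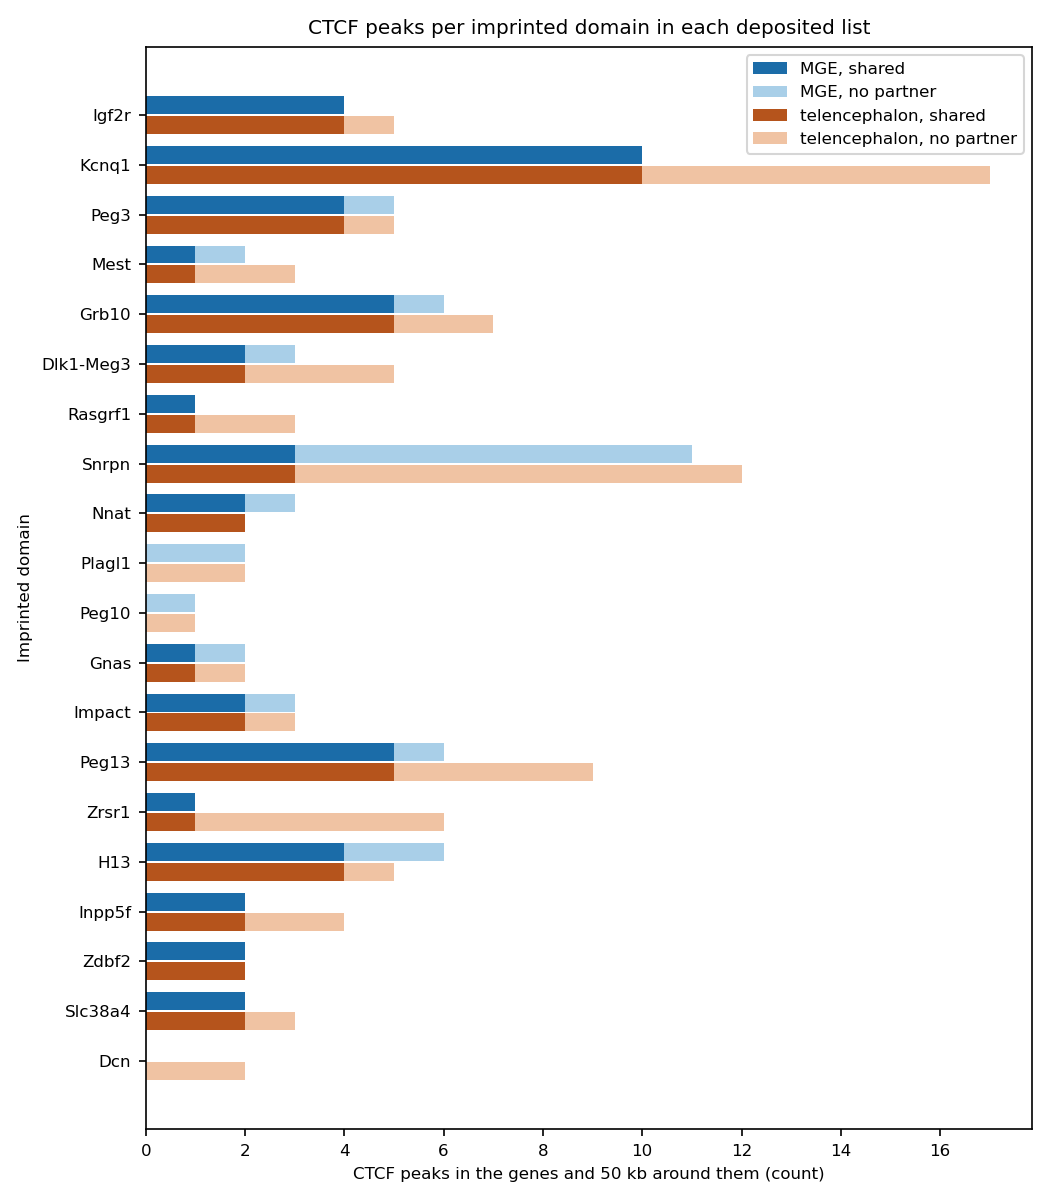
Number of CTCF peaks in the genes and 50 kb around them for each of the 20 imprinted domains, in the MGE list (upper bar) and the telencephalon list (lower bar); dark parts are shared peaks and pale parts have no partner. The Kcnq1 domain has the most shared peaks, 10 in each list, and the Snrpn domain has 8 MGE and 9 telencephalon peaks with no partner.

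In the Kcnq1 domain all 10 MGE peaks were shared, among 17 telencephalon peaks. Kcnq1 encodes a potassium channel, and Kcnq1ot1 is a noncoding RNA transcribed antisense within it from the paternal copy, whose start is the control region of the domain. No peak of either list lay in Kcnq1ot1 (chr7:143213111-143296547), and the nearest were at 58944 bp in MGE and 58966 bp in telencephalon. They belonged to a shared pair inside Kcnq1 (chr7:143153897-143154167 in MGE and chr7:143153687-143154145 in telencephalon). The span without a peak of either list that follows this pair was 309.6 kb long and held Kcnq1ot1 and Cdkn1c. Spans at least as long made up 2.12% by number of the 42448 spans between neighbouring peaks of the genome, whose median was 30.9 kb. Long spans cover more of the genome than their number shows, so a given gene lies in one more often than this share. The span ended just above Cdkn1c, the maternally expressed cell cycle inhibitor p57, at a group of 3 shared peaks. In MGE these were 454, 368 and 356 bp wide and 2869, 5268 and 8965 bp from the gene. In telencephalon they were 872, 377 and 346 bp wide and 2736, 5235 and 8914 bp from it. The motif of Gm33663 printed above lay in the middle pair. Phlda2, which restrains placental growth, had a shared pair at 3623 bp in MGE and 3428 bp in telencephalon, and an unshared telencephalon peak at 2747 bp. Tspan32, a tetraspanin gene, held a shared pair (chr7:143008016-143008426 in MGE and chr7:143008029-143008391 in telencephalon). The nearest peaks of its neighbour Cd81, another tetraspanin gene, were at 18426 bp in MGE and 5221 bp in telencephalon, the second of them unshared. Ascl2, a placental transcription factor gene, had the Tspan32 pair as its nearest peaks, at 38752 bp in MGE and 38765 bp in telencephalon. Kcnq1 itself held 3 further peaks in telencephalon, of 397, 511 and 231 bp, with no MGE partner.

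In the Snrpn domain, the mouse counterpart of the human Prader-Willi and Angelman region, the lists parted. Of 11 MGE and 12 telencephalon peaks 3 were shared. Ube3a, a ubiquitin ligase gene expressed from the maternal copy in neurons, held 3 MGE peaks (chr7:59243670-59244011, chr7:59270447-59270690 and chr7:59279844-59280341) and no telencephalon peak, the nearest of which lay 148346 bp away. With a peak 29048 bp beyond Ube3a, a peak 47754 bp from Snrpn, a peak inside Snrpn and Snurf (chr7:60002267-60002551) and a further peak in Snrpn (chr7:60139217-60139460), these formed a run of 7 MGE peaks over 895.8 kb with no telencephalon peak among them. Of 16812 runs in the MGE list, single peaks included, 213 had as many peaks or more. Snurf, a reading frame upstream of Snrpn in the same transcript, had its nearest telencephalon peak 233691 bp away. A single shared pair lay inside Snrpn, which encodes a spliceosome protein (chr7:60387093-60387502 in MGE and chr7:60387066-60387287 in telencephalon). Near the paternally expressed genes Ndn, Magel2 and Mkrn3 the MGE list held 1 unshared peak and the telencephalon list 6. Magel2, of the MAGE family, had telencephalon peaks of 246 and 185 bp, 974 and 881 bp from its ends, and its nearest MGE peak was 18501 bp away. Mkrn3, which encodes a RING finger protein, had 2 MGE peaks in its window, both shared, and 8 telencephalon peaks. Ndn, which encodes necdin, had its nearest peak at 44440 bp in MGE and at 25832 bp in telencephalon.

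Several imprinted genes lie within or across another, and these domains differed in where their shared peaks lay. Peg13, a paternally expressed noncoding RNA within Trappc9, a gene of vesicle trafficking, had a shared pair at an end (chr15:72809958-72810243 in MGE and chr15:72810042-72810442 in telencephalon). Kcnk9, a potassium channel gene next to it, had a shared pair inside (chr15:72517078-72517465 in MGE and chr15:72517036-72517425 in telencephalon) and another 753 bp beyond its end in MGE and 513 bp beyond it in telencephalon (chr15:72549367-72549798 and chr15:72549127-72549710). Between the Kcnk9 end and Peg13, 259.3 kb held no peak of either list. Spans at least as long made up 3.39% by number of the 42448 spans between neighbouring peaks of the genome. As for the Kcnq1 span, a given gene lies in one more often than this share. Trappc9 had a further shared pair (chr15:73022794-73023238 in MGE and chr15:73022928-73023360 in telencephalon), and held 2 MGE and 6 telencephalon peaks in all.

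H13 had 5 MGE and 4 telencephalon peaks inside, with 4 shared. Besides the promoter pair (chr2:152669218-152669511 in MGE and chr2:152669120-152669625 in telencephalon), they lay at chr2:152678249-152678492, chr2:152693248-152693660 and chr2:152696713-152697138 in MGE and at chr2:152678397-152678622, chr2:152693093-152693580 and chr2:152696748-152697105 in telencephalon. Mcts2, a paternally expressed retrogene within H13, held no peak, and shared peaks lay on both sides of it, the nearest at 5302 bp in MGE and 5147 bp in telencephalon. A 369 bp MGE peak inside H13 (chr2:152671722-152672090) had no partner.

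Zrsr1, a paternally expressed splicing factor retrogene within Commd1, held no peak in either list. Commd1 held no MGE peak and 4 telencephalon peaks, of 212, 150, 396 and 380 bp. The last covered its promoter window (chr11:22982184-22982563). It is not counted as a gene-end peak above, since the annotated end of Commd1 lies farther out. The sole MGE peak of the domain was shared and lay 2836 bp from Commd1, beside 2814 bp in telencephalon. Airn, the noncoding RNA that silences its neighbours on the paternal copy, held 2 shared pairs, at chr17:12810534-12810812 and chr17:12858193-12858584 in MGE and at chr17:12810535-12810805 and chr17:12858117-12858605 in telencephalon. Igf2r, the receptor gene it overlaps, held none in either list. All 4 MGE peaks of this domain were shared, among 5 telencephalon peaks. Nnat, which encodes the membrane protein neuronatin, lies within Blcap. Neither held a peak, and the nearest, a shared pair, was 5168 bp from Blcap in MGE and 5194 bp from it in telencephalon.

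**Figure D4:**
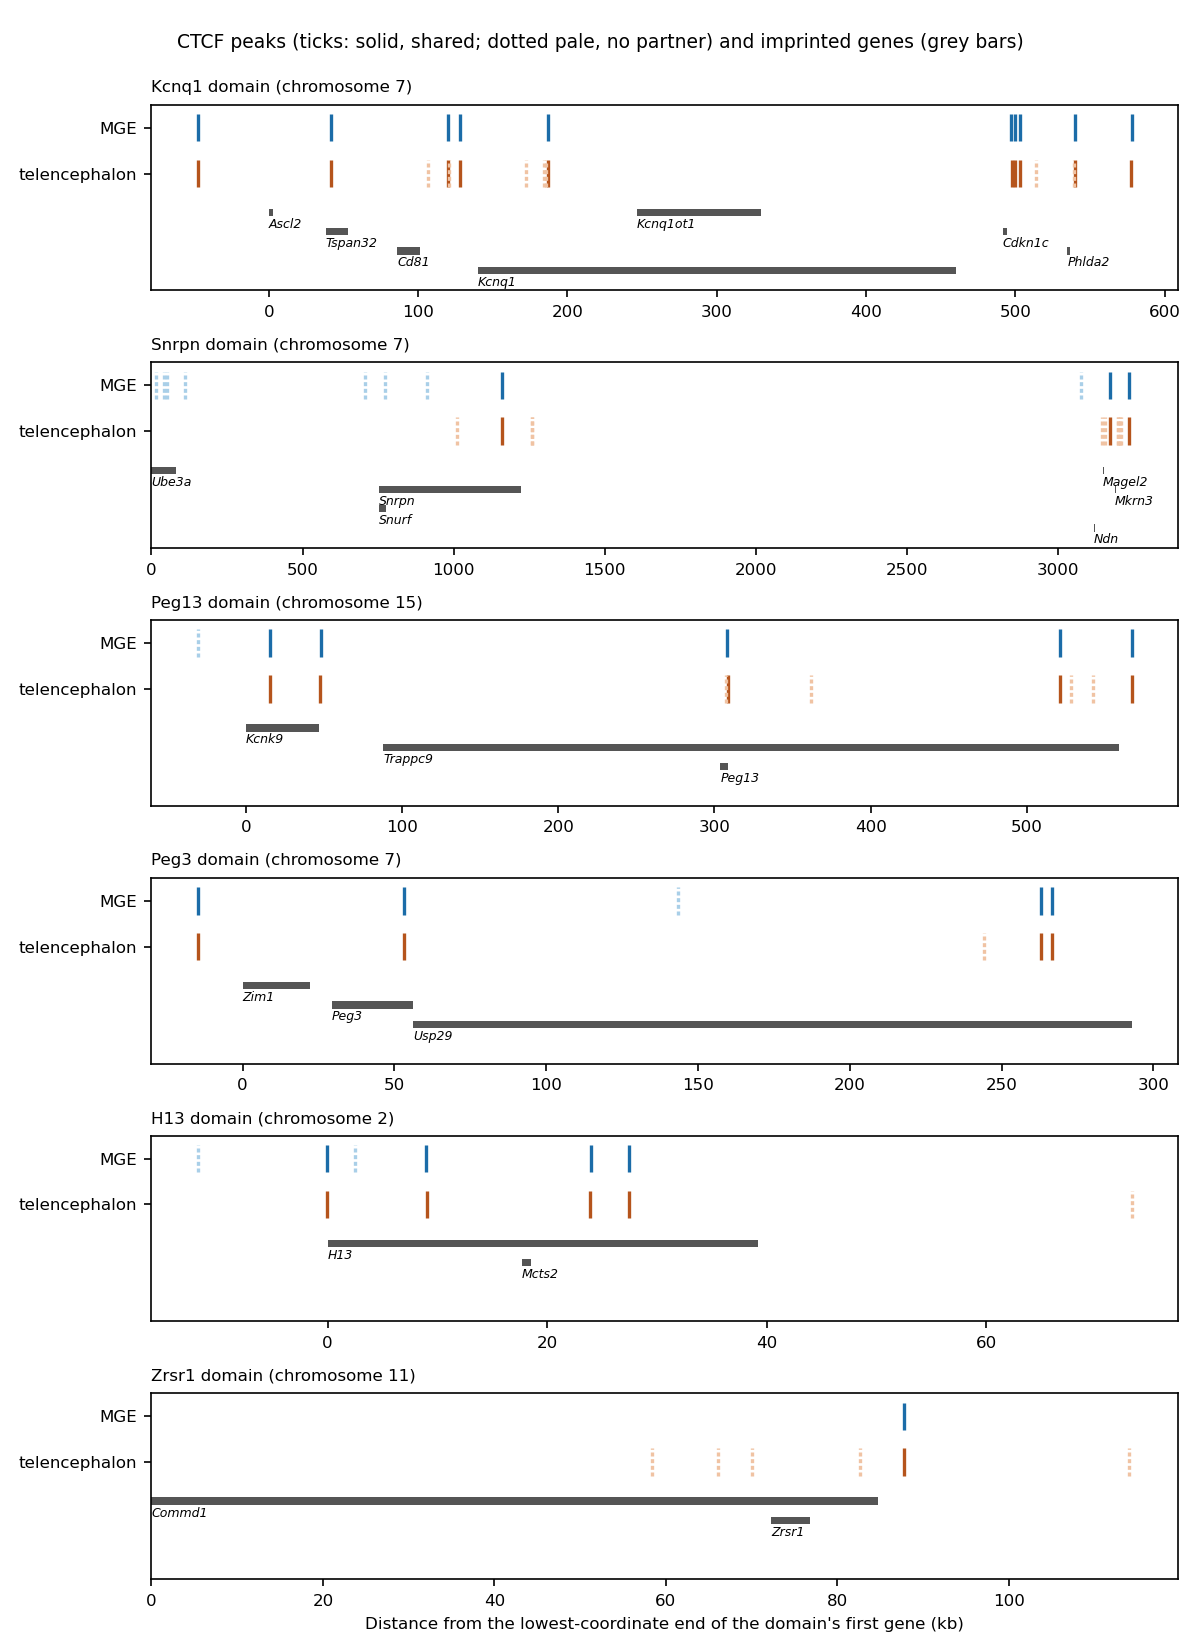
Maps of 6 imprinted domains, each with MGE peaks above, telencephalon peaks below them and imprinted genes as grey bars, against distance in kb from the first gene's lower end; solid ticks are shared peaks and dotted pale ticks have no partner. The Kcnq1 map has no peak for 309.6 kb around Kcnq1ot1, and the Ube3a end of the Snrpn map has MGE ticks and no telencephalon ticks.

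In the Peg3 domain 4 of 5 peaks of each list were shared. Peg3, a paternally expressed zinc finger gene, held the widest pair of the domain, 560 bp in MGE (chr7:6727218-6727777) and 802 bp in telencephalon (chr7:6727104-6727905). Usp29, of the ubiquitin protease family, held pairs at chr7:6937148-6937564 and chr7:6940737-6941128 in MGE and at chr7:6937114-6937523 and chr7:6940737-6941263 in telencephalon. Zim1, a maternally expressed zinc finger gene, held no peak, with the nearest shared pair at 14479 bp in MGE and 14473 bp in telencephalon. Mest, a paternally expressed hydrolase-like gene, held a shared pair of narrow peaks, 267 bp in MGE (chr6:30737068-30737334) and 233 bp in telencephalon (chr6:30737036-30737268), which lay 466 and 532 bp from the nearest Mest promoter window. It also held 2 unshared telencephalon peaks, of 173 and 150 bp. Copg2, a coatomer gene that overlaps Mest at the end, held a 244 bp MGE peak without a partner, and its nearest telencephalon peak was 6427 bp away.

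Grb10, an adaptor of insulin signalling that is expressed from the paternal copy in neurons and the maternal copy in most other tissues, held 2 shared pairs among 3 peaks of each list. They lay at chr11:11973419-11973771 and chr11:12025656-12025928 in MGE and at chr11:11973439-11973728 and chr11:12025750-12025942 in telencephalon, the second 1994 and 1980 bp from a Grb10 promoter window. Its neighbour Ddc, which encodes the decarboxylase that makes dopamine and serotonin, held 1 pair (chr11:11820220-11820463 in MGE and chr11:11820248-11820508 in telencephalon). In the Dlk1-Meg3 domain the noncoding RNA gene Meg3 held a shared pair, 1738 bp from its promoter window in MGE and 1948 bp in telencephalon, 368 bp wide in MGE (chr12:109542783-109543150) and 150 bp in telencephalon (chr12:109542993-109543142). The telencephalon list had a further Meg3 peak of 252 bp, 951 bp from the promoter window. Dlk1, a gene of a Notch-like ligand, held no peak and had a shared pair at 14318 bp in MGE and 14412 bp in telencephalon. Between Dlk1 and Meg3, which includes the control region of the domain, there was 1 MGE peak, of 283 bp and 24274 bp from Dlk1, and no telencephalon peak. Rtl1, a retrotransposon-derived gene of the placenta, held none, with the nearest at 21750 bp in MGE and 8286 bp in telencephalon.

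Gnas held a shared pair (chr2:174311918-174312384 in MGE and chr2:174312162-174312436 in telencephalon), an unshared MGE peak of 364 bp beside it, and an unshared 150 bp telencephalon peak 75 bp from its lower end (chr2:174284096-174284245). Inpp5f, a phosphoinositide phosphatase gene, held a shared pair (chr7:128690203-128690584 in MGE and chr7:128690222-128690547 in telencephalon) with midpoints 9.0 bp apart. Plagl1, a zinc finger gene, held 2 MGE peaks of 246 and 343 bp (chr10:13094574-13094819 and chr10:13097708-13098050) and a telencephalon peak of 151 bp, none of them shared. Rasgrf1, a guanine nucleotide exchange factor gene of neurons, held no MGE peak and 2 telencephalon peaks of 229 and 200 bp. Its window counted as occupied in MGE through a shared peak 49944 bp away, the value nearest below the 50 kb limit, and the value nearest above it was a shared MGE peak 50213 bp from Ndn. Zdbf2, Slc38a4 and Impact held no peak inside in either list, and each had 2 shared pairs in its window. The nearest peaks of Zdbf2, a zinc finger gene, were at 17379 bp in MGE and 17236 bp in telencephalon. Those of Slc38a4, an amino acid transporter gene, were at 40980 bp in MGE and 40991 bp in telencephalon. Those of Impact, a regulator of translation, were unshared and lay at 14823 bp in MGE and 6194 bp in telencephalon. Dcn, which encodes the matrix proteoglycan decorin, had its nearest peak at 103362 bp in MGE and 10733 bp in telencephalon, and both telencephalon peaks in its window were 150 bp wide, the minimum of that list.

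**Figure D5:**
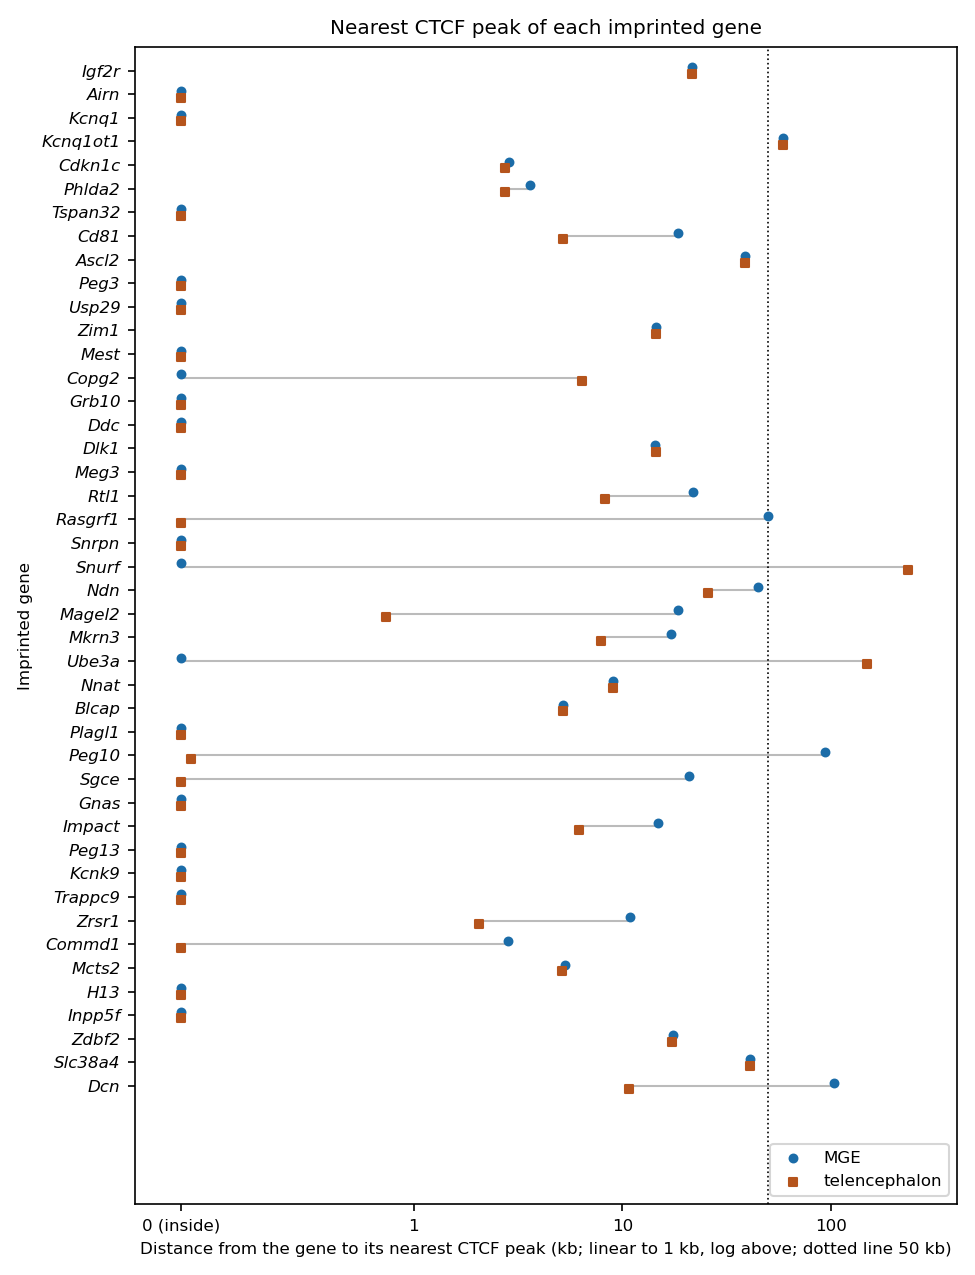
Distance in kb (linear to 1 kb, log above) from each of the 44 imprinted genes to its nearest CTCF peak in the MGE list (circles) and the telencephalon list (squares); the dotted line is 50 kb. For many genes the lists coincide. Among those that stand far apart are Snurf, Ube3a, Peg10, Dcn, Rasgrf1, Sgce, Magel2 and Copg2. Ube3a lies at 0 bp in MGE and 148346 bp in telencephalon.

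The genes were classed by the parental copy from which they are known to be expressed in mouse where imprinted. By this, 24 were paternal, 17 maternal and 3 were set apart as differing by tissue or transcript. The classes come from general knowledge and were not checked in embryonic forebrain. Imprinted expression of genes in the first 2 classes can also be limited to some tissues, as for Ube3a. Peaks lay inside 9 of 24 paternally and 8 of 17 maternally expressed genes in MGE (37.5%, 18.8 to 59.4%, and 47.1%, 23.0 to 72.2%), beside 31.4% of protein-coding genes. In telencephalon they lay inside 10 of 24 (41.7%, 22.1 to 63.4%) and 7 of 17 (41.2%, 18.4 to 67.1%), beside 39.1%. A shared peak in the gene or within 50 kb was found for 18 of 24 paternally and 15 of 17 maternally expressed genes (75.0%, 53.3 to 90.2%, and 88.2%, 63.6 to 98.5%), beside 68.2% of protein-coding genes. Each of these intervals holds the share of protein-coding genes. No difference between the classes was tested, and their intervals overlap.

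A further list of 32 imprinted genes, of which 31 were found in the gene table, had peaks in the same windows in 23 of 31 cases in MGE (74.2%, 55.4 to 88.1%) and 24 of 31 in telencephalon (77.4%, 58.9 to 90.4%). These shares lay between those of all genes (71.1% in MGE and 72.7% in telencephalon) and of protein-coding genes (80.3% and 82.8%). Shared peaks lay inside 11 of the 31 (35.5%, 19.2 to 54.6%, beside 24.3% of protein-coding genes and 13.9% of all genes), among them Th, which encodes the rate-limiting enzyme of dopamine synthesis, and Nap1l4, a histone chaperone gene in the Kcnq1 domain. Calcr, Pon2 and Pon3, which lie near Peg10, had no peak in the windows of either list. Of 18 genes listed as regulators of imprints, 15 had a peak in the window in MGE (83.3%, 58.6 to 96.4%) and 16 in telencephalon (88.9%, 65.3 to 98.6%). These shares were near the 80.3% and 82.8% of protein-coding genes. Shared peaks lay inside 6 of the 18 (33.3%, 13.3 to 59.0%, beside 24.3% of protein-coding genes and 13.9% of all genes). They included the DNA methyltransferase genes Dnmt1, Dnmt3a and Dnmt3b, and Dnmt3l, a cofactor of the de novo enzymes. The median length was 40.0 kb for the further imprinted genes and 38.1 kb for the regulators, against 17.2 kb for protein-coding genes. Tet2, which encodes an enzyme that oxidises methylated cytosine, and Zfp445, a zinc finger gene that protects imprints, had no peak in the windows of either list, 2 of 18 (11.1%) beside 2402 of 21883 protein-coding genes.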

How the data were processed

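The deposited files are CTCF peak lists, 1 for the single CTCF library of each tissue, with a chromosome, start and end per peak and no score, summit, fold or p-value. Sonicated chromatin averaged 500 bp, per the labels' protocols, and libraries were made with the NEBNext Ultra II kit for MGE and the NEB ChIP-Seq kit for telencephalon. Per the submitters' processing notes, Bowtie2 2.3.2 and MACS2 2.1.1.20160309 were used with mm10; neither threshold nor control is given in the sources used here. Per the file headers, the track names end in p01 for MGE and p001 for telencephalon, and that of telencephalon begins with e14, so thresholds and stage may differ between the lists. Input libraries are not analysed here.

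Analysis was limited to chromosomes 1 to 19, X and Y (85 MGE and 93 telencephalon peaks lay elsewhere), in 1-based mm10 positions. Overlaps were computed with pandas 2.3.3 and numpy 2.4.6 and gave the same counts as bedtools 2.31.1, also on simulated data; intervals came from scipy 1.17.1. A peak was counted once per list over the windows of all genes. Gene ends were the outermost annotated ends, with 1 kb either side, and promoter windows came from the RefSeq table. Motifs were sought in promoter windows, since no genome sequence was used here. With 1 library per tissue no p-value was computed, and depth is unknown. The members and lists were chosen with earlier results of these data known. All 44 genes are named, and positions are given for shared peaks inside a gene or within 1 kb of its end; other peaks given by position were chosen after their values were seen.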

Additional observations from a re-analysis of the deposited data

How the results depend on the processing

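Of 61 alternatives, 39 left the result within its counting interval, or a count within 1.5 times, and 22 did not. Most of the 22 change the window or remove peaks by construction. Some of the 39 could not move, since alternatives that remove only telencephalon peaks leave the MGE counts as they were. With windows of 10 kb the peak counts were 44 in MGE and 64 in telencephalon, and 26 genes had an MGE peak. In the gene body alone there were 34 and 43 peaks, and 20 genes with a peak in each list. With the widest 50% of each list there were 44 and 51 peaks in the windows, and 1 and 3 genes with a gene-end peak. With peaks of at least the narrowest MGE width, 60 telencephalon peaks remained, 73.3% of them were shared, and 5 genes had a telencephalon gene-end peak. That count was also 5 with the telencephalon list shortened to its widest peaks, as many as the MGE list holds, and 5 with ends of 500 bp. Gene ends of 2 kb gave 6 genes in MGE, and ends of 5 kb gave 15 in MGE and 19 in telencephalon. Promoter windows in place of gene ends, chosen after seeing the data, gave 1 and 3 genes of 34. The strict motif form was found in 0 of 49 promoter windows of imprinted genes. The share of MGE peaks that were shared stayed between 61.1 and 73.6% under its alternatives.

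No paired analysis was possible because each tissue has 1 CTCF library and the labels give no replicate numbers. Without replicates the spread between libraries of a tissue cannot be given, and a site without a peak is not shown to lack CTCF.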

Other observations

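Between Snrpn and Ndn, outside the windows described, a run of 17 MGE peaks stretched over 1072.4 kb (chr7:60804659-61877108) with no telencephalon peak among them. Of the 16812 runs in the MGE list, 17 had as many peaks or more. The run of 7 MGE peaks from Ube3a to Snrpn lies before it on the same chromosome and is not adjacent to it. Between them lay runs of 2 and 4 telencephalon peaks and a single MGE peak, the shared one inside Snrpn. Near Mkrn3 the telencephalon run with the most peaks had 6 over 64.6 kb (chr7:62400159-62464800). Of 16814 telencephalon runs, 315 had as many peaks or more. Runs follow the order of start positions, and the first and last peaks of this run overlapped MGE peaks and were shared.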
